A study of Macaca fascicularis with 10 samples.

Results

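Centrosome and cilium genes were followed at the level of the 2 parental alleles in dorsal raphe tissue, where most serotonin neurons that reach the forebrain lie. They were chosen by symbol alone, as every row of the deposited count table whose name begins with CEP, IFT, BBS, TTC, CFAP, DNAH, DNAI, NPHP, TUBG, TCTN, CSPP, AHI1, PCNT, CCP110, NEK, RSPH, TEKT or SPAG in the form those families use. The rule found 84 of 7229 genes. By symbol they fall into 26 centrosome and centriole genes, 4 transition zone genes, 8 intraflagellar transport genes, 3 BBSome genes, 17 axoneme genes, 4 NEK kinase genes and 22 TTC protein genes.

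Tissue came from 10 female Macaca fascicularis (cynomolgus monkeys) whose labels name both parents, and these daughters are numbered here from 1 to 10. The labels give 1 tissue, no treatment, no genotype and no age, so the 2 groups compared are the paternal and the maternal allele within each daughter. Balance is given as the paternal share, in percent, of the reads of a gene that could be assigned to a parent (its allelic reads). A share of 50% means equal reads from both parents.

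The centrosome organises microtubules around a pair of centrioles. In most non-dividing cells, neurons included, the older centriole becomes the basal body of a primary cilium, a short antenna that receives signals such as Hedgehog. Intraflagellar transport trains carry cargo along the cilium, the transition zone gates its base, and the BBSome carries membrane receptors out of it. Motile cilia, which ependymal cells lining the ventricles carry in tufts, also hold axonemal dyneins and radial spokes. The symbols do not guarantee the role, since TTC names only a repeat motif and some TTC and SPAG proteins work elsewhere in the cell.

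Allelic reads over all genes ranged from 30090 in daughter 1 to 999471 in daughter 6, and centrosome and cilium genes took 0.883% ± 0.272 of them (SD, n = 10). The number of members with 10 or more allelic reads was 5 in daughter 1, and the other 9 daughters had 35 to 65. Of the serotonin neuron markers, TPH2, the enzyme of brain serotonin synthesis, had 9561 allelic reads in 7 of the 10 daughters. DDC was measured in 5 daughters, SLC18A2 in 3, SLC6A4 in 2 and GATA3 in 1. Together these markers had between 0 and 6386 summed allelic reads per daughter, so the tissue label could not be checked in every daughter. Of 10 ependymal markers 4 were in the table, with between 6 and 681 summed allelic reads per daughter. The master regulator of motile cilia, FOXJ1, had 86 reads in 2 daughters, with paternal shares of 30.4% and 42.9%. The others had more reads. Mean shares were 57.5% for CCDC153 (244 reads, 6 daughters measured), 46.4% for DYNLRB2 (1216 reads, 7 daughters) and 49.4% for HYDIN (1712 reads, 9 daughters). The tissue was read in bulk, so fewer cells of a type and less RNA per cell cannot be told apart, and the part of ependymal cells in the shares was not tested.

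All 84 members can be accounted for. There were 79 with 10 or more allelic reads in at least 1 daughter and 55 in 5 or more daughters, which is the set that could be tested. Another 24 were measured in 1 to 4 daughters, and 5 (CEP72, NEK8, SPAG4, TTC25 and TTC28) never reached 10 reads. The 79 gave 452 measurements, of which 384 had 20 or more reads. These 384 measurements mostly lay near balance, with 277 (72.1%) between 40% and 60% paternal, against 74.5% of 22693 measurements over all genes.

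**Figure D1:**
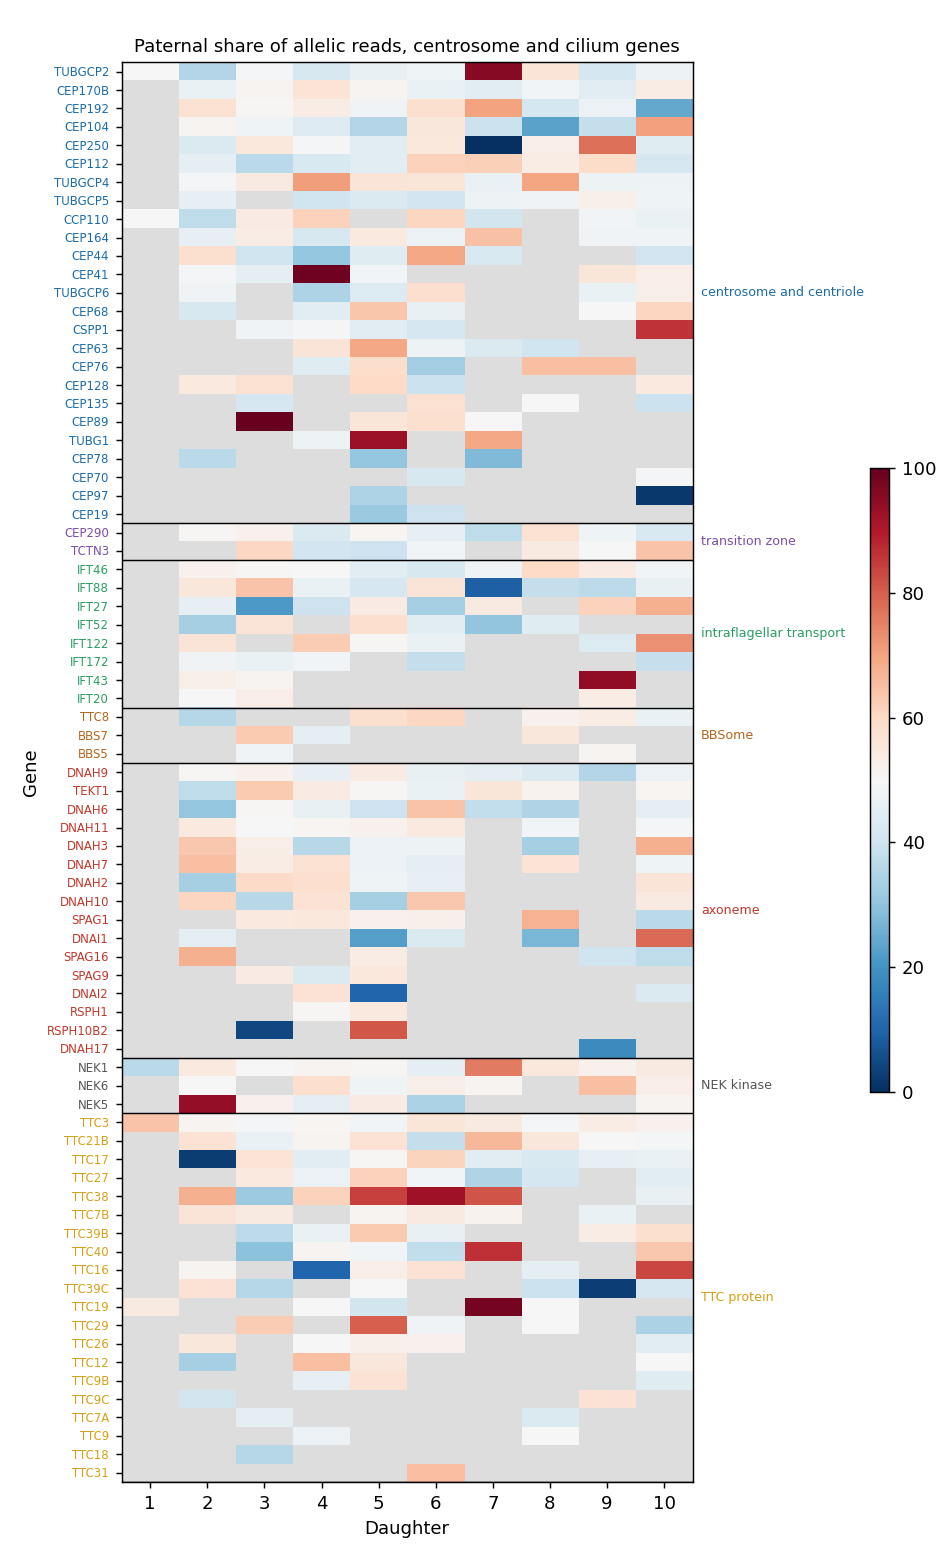
Paternal share of allelic reads (colour, in percent) for 77 of the 79 measured genes (rows, by role class) in daughters 1 to 10 (columns), with grey where a gene had fewer than 10 allelic reads. Most cells are pale, near 50%, and some rows hold a single dark cell, as for CEP41 in daughter 4 at 98.5% and TTC17 in daughter 2 at 2.53%, while others, such as TTC38 and TTC16, hold several.

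The first comparison asked whether any member was read more from the paternal or the maternal allele across daughters. None passed the test. By edgeR's quasi-likelihood test with the daughter as block, 0 of 55 members differed at an adjusted p of 0.05, against 0% of 2981 genes, and the lowest adjusted p among members was 1. At an unadjusted p under 0.05 there was 1 member with edgeR (1.82%, against 3.12% of all genes tested) and there were 2 with DESeq2 (3.64%, against 2.08%), which also called 0. The log2 fold change of paternal over maternal reads had a median of 0.03 over the 55 members, with 32 above 0 and 23 below, against a median of -0.01 over the 2981 genes. It lay between -0.69 and 0.93, and 46 of 55 members were within 0.3 of 0. Pooled over all members, paternal reads made up 50.1% ± 1.01 of allelic reads (SD, n = 10), from 49.1% in daughter 4 to 52.5% in daughter 7.

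TUBGCP5 was the member with the smallest p. It encodes a subunit of the gamma-tubulin ring complex, which nucleates microtubules at the centrosome. Its paternal share ranged from 40.2% over a median of 46.7% to 52.4% in 8 daughters, and lay below 50% in 7 of them. In daughter 6, where it was deepest, it had 234 paternal and 343 maternal reads, or 40.6% (95% Wilson interval 36.6 to 44.6). In daughter 9, on the other side, it had 75 paternal and 68 maternal reads. The log2 fold change was -0.27 ± 0.11 (SE, edgeR adjusted p = 1), which did not pass. By title prefix, its mean share was 49% ± 2.34 in 4 daughters of prefix 10480 and 42.3% ± 2.58 in 4 daughters of prefix 10203 (SD), with an edgeR adjusted p of 1 for the difference.

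Other subunits of that complex lay on both sides of balance. TUBGCP6 had a median of 47.4% in 6 daughters, with 2 above 50% and 4 below, and is named after its values were seen. TUBGCP4 had shares from 46.5% over a median of 54.5% to 70.8% in 9 daughters, with 5 above 50% and 4 below, and a log2 fold change of 0.26 ± 0.18 (SE, edgeR adjusted p = 1). Its 2 highest daughters were daughter 4, with 17 paternal and 7 maternal reads, and daughter 8, with 48 paternal and 21 maternal reads. TUBGCP2 lay below 50% in 7 of 10 daughters and above it in 2, with a median of 47.7%, and its highest value, in daughter 7, is given with the single-allele measurements. TUBG1, gamma-tubulin itself, was measured in 3 daughters. It had 19 paternal and 21 maternal reads in daughter 4, 28 paternal and 2 maternal in daughter 5, and 18 paternal and 8 maternal in daughter 7.

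Among the CEP genes, CEP170B and CEP192 had mean shares near 50%. CEP170B, a paralogue of a microtubule-binding protein of the older centriole, had 49.4% ± 4.19 (SD, n = 9), from 44.4% over a median of 48.8% to 56.8%. Its spread was among the 4 smallest of the members. CEP192, which recruits the material around the centrioles, had a like mean of 50.2% but a wider SD of 12.7 (n = 9). Its ends were daughter 7, with 104 paternal and 44 maternal reads (70.3%, interval 62.5 to 77.0), and daughter 10, with 10 paternal and 31 maternal reads (24.4%, interval 13.8 to 39.3). Neither interval includes 50%, and they lie on opposite sides.

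CCP110, which caps centrioles and holds back cilium growth, also had daughters on both sides, with shares from 37.2% over a median of 49.3% to 61.7% (mean 50% ± 8.74, SD, n = 8). In daughter 6 it had 176 paternal and 113 maternal reads (60.9%, interval 55.2 to 66.3). In daughter 4 it had 95 paternal and 59 maternal reads, and in daughter 2 it had 29 paternal and 49 maternal reads. Each of these 3 intervals excludes 50%, while daughter 9, with 117 paternal and 124 maternal reads, was balanced. Its partner CEP97 was measured in only 2 daughters, and maternal reads were more in both, as given below.

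CSPP1, a centrosome and spindle protein needed for cilium formation, was balanced in 4 daughters and not in the fifth. Its paternal shares were 48.3%, 49.1%, 44.4% and 41.7% in daughters 3, 4, 5 and 6. In daughter 10 it had 93 paternal and 15 maternal reads, or 86.1% (interval 78.3 to 91.4). Daughters 6 and 10 have the same labelled mother. Over the 18 tested centrosome and centriole genes, 9 had a log2 fold change above 0 and 9 below, with a median of 0.01.

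Transition zone genes had few departures from balance beyond counting error. Of their 26 measurements with 20 or more reads, 19 lay between 40% and 60% (73.1%, against 74.5% over all genes), and 1 had a Wilson interval that excluded 50%, or 3.85%, where the share was 22% of measurements over all genes. That difference was not tested, and reads were fewer, with a median of 55.8 per measurement in the 4 tested genes of this class against 77.4 over all genes. CEP290, which builds the links between microtubules and membrane at the cilium base, had shares from 37.1% over a median of 48.0% to 57.6% in 9 daughters (mean 47.5% ± 6.17, SD).

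Intraflagellar transport genes held both a steady and an unsteady member within the same complex. IFT46, a subunit of the train that carries cargo outward, had 50% ± 5.28 (SD, n = 9), from 42.2% over a median of 49.8% to 60%. In daughter 3 its 390 reads were 197 paternal and 193 maternal. IFT27, a small GTPase of the same train that also serves BBSome export, had 47.3% ± 15.3 (SD, n = 8), from 21.5% over a median of 50.1% to 67.9%.

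The departures of IFT27 from balance were well covered and went both ways. In daughter 3 it had 82 paternal and 300 maternal reads (21.5%, interval 17.6 to 25.9), and in daughter 6 it had 44 paternal and 88 maternal reads (33.3%, interval 25.9 to 41.7). In daughter 10 it had 110 paternal and 52 maternal reads (67.9%, interval 60.4 to 74.6). Daughters 6 and 10, which lie on opposite sides, have the same labelled mother. Daughter 5, with 79 paternal and 67 maternal reads, included 50% in its interval.

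IFT88, needed for cilium growth, had 43.9% ± 15.9 (SD, n = 9), from 9.09% over a median of 46.2% to 64.2%. The lowest value is daughter 7, with 1 paternal and 10 maternal reads, which is thin. Deeper daughters also lay on both sides, with 131 paternal and 73 maternal reads in daughter 3 (64.2%, interval 57.4 to 70.5) and 85 paternal and 120 maternal reads in daughter 5 (41.5%, interval 34.9 to 48.3). IFT52 had 44.5% ± 11.5 (SD, n = 6), from 30.2% over a median of 44.2% to 58.5%, with a log2 fold change of -0.31 ± 0.23 (SE, edgeR adjusted p = 1). Of the 6 tested members of this class, 5 had a log2 fold change below 0 and 1 above, and none passed. The median was -0.23, against -0.01 over all genes tested. The class is drawn by symbol and leaves out TTC21B and TTC26, also transport subunits, which are counted with the TTC proteins. Their log2 fold changes were 0.11 and 0.10, above 0.

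The BBSome genes were thinly measured. TTC8, a BBSome subunit also called BBS8, had 51.1% ± 9.02 (SD, n = 6), from 35.6% over a median of 52.9% to 60.5%. BBS7 had shares of 63.0%, 45.0% and 55.6% in daughters 3, 4 and 8, from 73, 20 and 18 reads. BBS5 had 48.2% in daughter 3 and 51.4% in daughter 9. Of their 10 measurements with 20 or more reads, 4 had an interval that excluded 50% (40%, against 22% over all genes, not tested), 3 of them from TTC8 (daughters 2, 5 and 6) and 1 from BBS7 (daughter 3).

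Axoneme genes, the motors and spokes of motile cilia, included the smallest SD among the 55 members measured in 5 or more daughters. DNAH11, an outer arm dynein heavy chain known for its part in left-right asymmetry, had 51.6% ± 2.58 (SD, n = 7), from 48.5% over a median of 50.8% to 55.0%. All 7 intervals included 50%, as in daughter 5 with 165 paternal and 152 maternal reads. Its SD lay below the 4.79 percentage points that counting alone gives at those read numbers with equal alleles. DNAH9, another outer arm heavy chain and the axoneme gene with most reads, had 46.6% ± 5.55 (SD, n = 9), from 35.3% over a median of 46.1% to 54.1%. It was paternal in daughter 5, with 373 paternal and 316 maternal reads (54.1%, interval 50.4 to 57.8), and maternal in daughter 6, with 323 paternal and 377 maternal reads (46.1%, interval 42.5 to 49.8).

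DNAH6, an inner arm heavy chain, lay below 50% in 6 of 8 daughters, with 43.6% ± 10.5 (SD, n = 8) and a log2 fold change of -0.29 ± 0.22 (SE, edgeR adjusted p = 1). It ranged from 30.6% over a median of 42.3% to 64.1%. TEKT1, a filament protein inside the microtubule doublets, was balanced in 7 of 8 daughters. The exception was daughter 2, with 88 paternal and 148 maternal reads (37.3%, interval 31.4 to 43.6). The other 7 lay between 46.7% and 63.2%, the last in daughter 3 with 12 paternal and 7 maternal reads.

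DNAI1, an outer arm intermediate chain whose loss causes ciliary dyskinesia in humans, spread widely at low read numbers, with 43.3% ± 21.8 (SD, n = 5). It had 5 paternal and 6 maternal reads in daughter 2, 7 paternal and 24 maternal reads in daughter 5, and 12 paternal and 16 maternal reads in daughter 6. In daughter 8 it had 3 paternal and 8 maternal reads, and in daughter 10 it had 25 paternal and 7 maternal reads. Daughters 5 and 10 lie on opposite sides, and the other 3 have intervals that include 50%. Of the 10 tested axoneme genes, 7 had a log2 fold change above 0 and 3 below, with a median of 0.03.

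The NEK kinases are relatives of a mitotic kinase, and several sit at centrosomes or cilia. NEK1, which acts in cilium formation and DNA repair, had 52.6% ± 9.94 (SD, n = 10), from 36.4% over a median of 51.7% to 75.9%. Its highest value was daughter 7, with 44 paternal and 14 maternal reads (75.9%, interval 63.5 to 85.0), and the mean without it was 50% ± 5.99. NEK6, a kinase of the mitotic spindle, had 54.0% ± 5.80 (SD, n = 7), from 47.7% over a median of 52.8% to 64.9%, with a log2 fold change of 0.23 ± 0.16 (SE, edgeR adjusted p = 1). NEK5 had 55.2% ± 20.2 (SD, n = 6), with its highest value of 93.8% from 15 paternal reads and 1 maternal read in daughter 2, and a mean of 47.4% ± 8.04 in the other 5 daughters.

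The TTC proteins held the member with most allelic reads and members with both small and large spreads. TTC3, a ubiquitin ligase, had 11321 allelic reads in measurements over all 10 daughters. Its share was 53.0% ± 4.63 (SD, n = 10), from 48.5% over a median of 51.7% to 64.3%. The highest value came from daughter 1, with 18 paternal and 10 maternal reads, and without it the mean was 51.8% ± 2.55. In daughter 6 it had 804 paternal and 632 maternal reads (56.0%, interval 53.4 to 58.5). In daughter 5, with the most reads, it had 1316 paternal and 1400 maternal reads (48.5%, interval 46.6 to 50.3). The log2 fold change was 0.14 ± 0.07 (SE, edgeR adjusted p = 1).

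Members of this class that take part in intraflagellar transport had mean shares near balance. TTC21B, a subunit of the train that returns cargo to the cell body, had 52.5% ± 7.98 (SD, n = 9), from 38.3% over a median of 51.5% to 66.7%. In daughter 2 it had 129 paternal and 96 maternal reads (57.3%, interval 50.8 to 63.6). In daughter 6 it had 62 paternal and 100 maternal reads (38.3%, interval 31.1 to 45.9), and both intervals exclude 50%. TTC26, a subunit of the outward train, had 50.9% ± 4.12 (SD, n = 5), with shares of 55.6%, 50%, 52.5%, 52.0% and 44.4% in daughters 2, 4, 5, 6 and 10. These shares came from 18, 10, 40, 25 and 18 reads. Their SD lay below the 11.7 percentage points that counting alone gives with equal alleles. TTC7B, part of the complex that holds a phosphoinositide kinase at the plasma membrane, had 52.6% ± 3.38 (SD, n = 6), from 46.8% over a median of 53.1% to 56.4%. These 3 contrast in size with TTC38, whose share was 66.4% ± 21.8 (SD, n = 7).

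TTC38 was above 50% in 5 of 7 daughters, with shares from 31.8% over a median of 67.6% to 92.4% and a log2 fold change of 0.93 ± 0.49 (SE, edgeR adjusted p = 1). It had 23 paternal and 11 maternal reads in daughter 2, 43 paternal and 27 maternal in daughter 4, 16 paternal and 3 maternal in daughter 5, 85 paternal and 7 maternal in daughter 6, and 13 paternal and 3 maternal in daughter 7. It was maternal in daughter 3, with 28 paternal and 60 maternal reads (31.8%, interval 23.0 to 42.1), and had 37 paternal and 43 maternal reads in daughter 10. TTC16 had 50.2% ± 23.5 (SD, n = 6), the widest spread of the 55 tested members. Its ends were thin, with 2 paternal and 17 maternal reads in daughter 4 and 10 paternal and 2 maternal reads in daughter 10, while its 3 measurements with 20 or more reads lay between 51.5% and 57.1%.

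The balance of single daughters was then compared with that of all genes at like read numbers. Of 384 member measurements with 20 or more reads, 86 (22.4%) had a Wilson interval that excluded 50%, against 22% of 22693 over all genes. There were 45 on the paternal and 41 on the maternal side. The share of members is thus near that of all genes. By class the count was 35 of 135 for centrosome and centriole genes, 8 of 40 for intraflagellar transport, 19 of 70 for the axoneme, 2 of 21 for NEK kinases and 17 of 82 for TTC proteins. Deeper measurements lay closer to balance. Between 40% and 60% lay 54.8% of 126 member measurements with 20 to 49 reads, 71.7% of 113 with 50 to 99, 84.9% of 86 with 100 to 199 and 91.5% of 59 with 200 and more. Over all genes these were 61.8%, 73.5%, 83.9% and 89.8%.

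**Figure D2:**
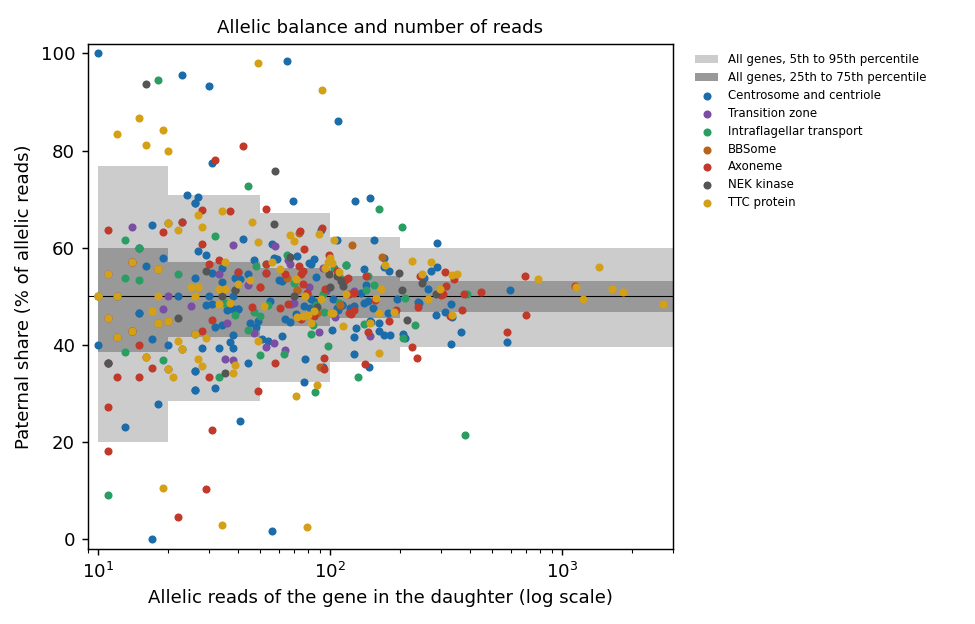
Paternal share (vertical axis, percent) against allelic reads (horizontal axis, log scale) for each of the 452 member measurements, coloured by role class, over grey bands for all genes in the same ranges of read number. The points narrow towards 50% as reads increase, and 54 of the 59 points with 200 and more reads lie between 40% and 60%.

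A few members were read almost wholly from 1 allele, each in a single daughter. With 90% or more of 20 or more reads on 1 allele there were 9 of 384 measurements (2.34%, against 1.6% over all genes), 5 on the paternal side (0.802% over all genes) and 4 on the maternal side (0.802%). They came from 9 of 76 genes (11.8%, against 6.08% of 5243 genes), and no gene showed it in a second daughter. Over all genes 364 such measurements came from 319 genes, so repeats were few there too. CEP97 and RSPH10B2 had only 1 other measured daughter, and TUBG1 had 2. No test of these differences from all genes was made. Members had 5.05 measurements with 20 or more reads per gene, against 4.33 over all genes. The 9 were spread over daughters 2, 3, 4, 5, 6, 7, 9 and 10, with 2 of them in daughter 7 and none in daughters 1 and 8.

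Among these, CEP41, a protein needed to add glutamate chains to ciliary tubulin, had 64 paternal reads and 1 maternal read in daughter 4 (98.5%, interval 91.8 to 99.7). In the other 5 daughters its share lay between 45.0% and 56.1%, with a mean of 50.5% ± 4.34 (SD). Daughter 5, which has the same labelled father as daughter 4, had 68 paternal and 72 maternal reads. TUBGCP2 had 22 paternal reads and 1 maternal read in daughter 7 (95.7%, interval 79.0 to 99.2), and between 35.5% and 56.4% in the other 9 daughters (mean 46.2% ± 6.03). In daughter 8, with the same labelled father, it had 66 paternal and 51 maternal reads.

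TTC19, an assembly factor of the mitochondrial respiratory chain, had 48 paternal reads and 1 maternal read in the same daughter 7 (98%, interval 89.3 to 99.6). It had 39 paternal and 39 maternal reads in daughter 8 and 78 paternal and 79 maternal reads in daughter 4. Its shares in daughters 1 and 5 were 54.5% and 40.8%, from 11 and 49 reads. TTC17, which acts in actin polymerisation and cilium formation, was on the maternal side in daughter 2, with 2 paternal and 77 maternal reads (2.53%, interval 0.697 to 8.77). In the other 8 daughters it lay between 42.3% and 61.2% (mean 49% ± 6.69).

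TTC39C had 1 paternal read and 33 maternal reads in daughter 9 (2.94%, interval 0.521 to 14.9), and between 35.9% and 57.1% in the other 5 daughters, with a log2 fold change of -0.69 ± 0.44 (SE, edgeR adjusted p = 1). CEP97 had 1 paternal read and 55 maternal reads in daughter 10 (1.79%, interval 0.316 to 9.45) and 9 paternal and 17 maternal reads in daughter 5. TUBG1 in daughter 5 and TTC38 in daughter 6, given above, are the other 2 on the paternal side. The last is RSPH10B2, a radial spoke protein, with 1 paternal read and 21 maternal reads in daughter 3 and 34 paternal and 8 maternal reads in daughter 5. It has near-identical copies, and rows of redundant genes were summed, so its shares are uncertain.

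**Figure D3:**
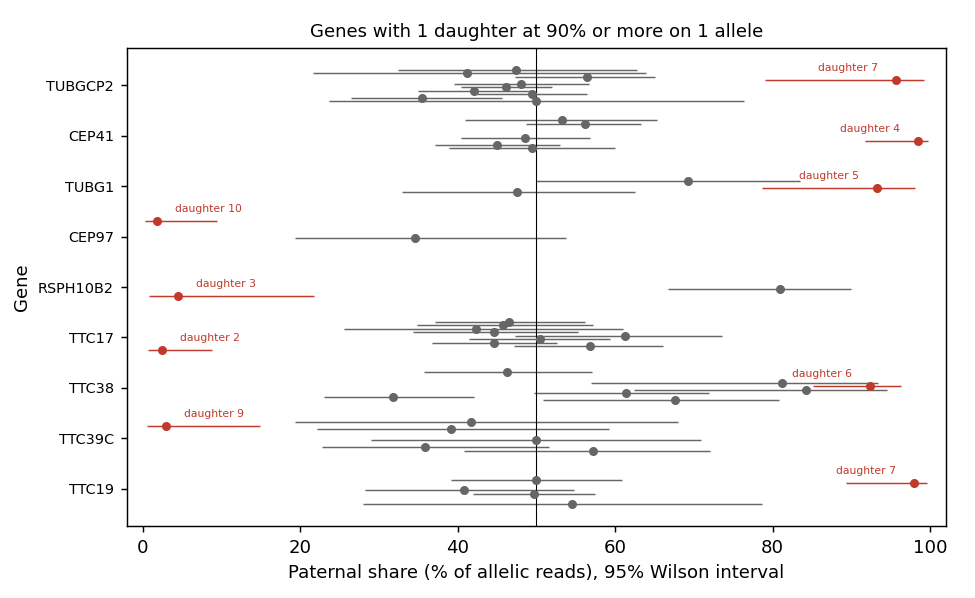
Paternal share (horizontal axis, percent) with 95% Wilson intervals for the 9 genes with a daughter at 90% or more of 20 or more reads on 1 allele, 1 point for each daughter with 10 or more reads. The labelled point of each gene lies apart from its other daughters for CEP41, TUBGCP2, TTC17, TTC19 and TTC39C, while TTC38 is spread from 31.8% to 92.4%.

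Variation between daughters was measured as the SD of the paternal share over daughters in genes measured in 5 or more. Its median was 9.94 percentage points over 55 members, with quartiles of 7.73 and 15.6, against 9.53 over 2981 genes, with quartiles of 6.54 and 13.7. Relative to the SD that counting alone gives with equal alleles, the median ratio was 1.40 for members and 1.30 for all genes. Median SD was 8.20 for 4 transition zone genes, 10.8 for 18 centrosome and centriole genes, 11.3 for 6 intraflagellar transport genes, 10.04 for 10 axoneme genes, 9.94 for 3 NEK kinases and 16.7 for 13 TTC proteins. The TTC proteins also had fewer reads, with a median of 57.4 per measurement against 77.4 for all genes, and their median ratio to counting was 1.68. No test of these differences was made.

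**Figure D4:**
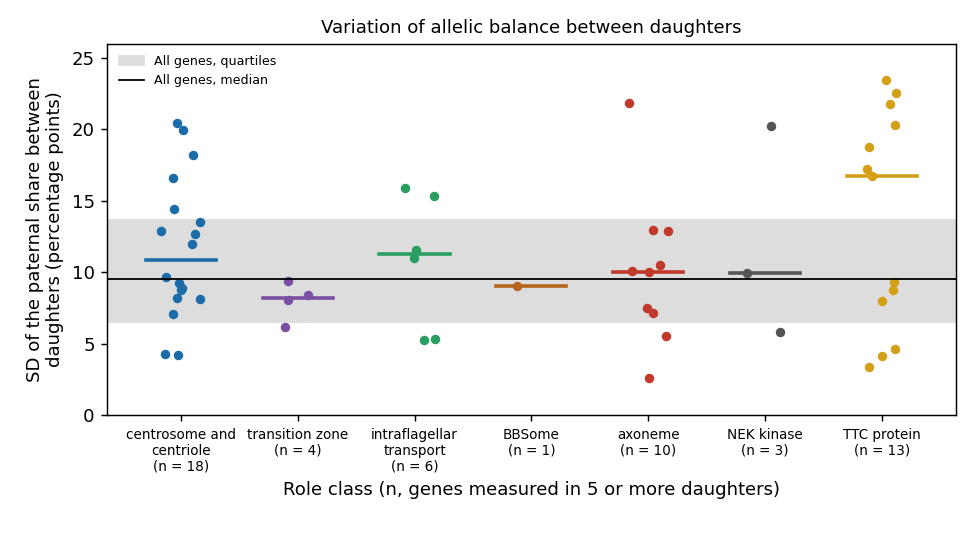
SD of the paternal share between daughters (vertical axis, percentage points) for the 55 genes measured in 5 or more daughters, by role class, with a coloured line at each class median and the median and quartiles of all 2981 genes in black and grey. DNAH11 is the lowest point at 2.58 and TTC16 the highest at 23.5, and the TTC proteins have their median at 16.7 over the 9.53 of all genes.

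The 2 title prefixes, 10480 with 4 daughters and 10203 with 6, were compared with each other, and the labels do not say what the prefix stands for. The parental difference differed between them for 0 of 55 members by edgeR, against 0.0335% of 2981 genes, and DESeq2 also called 0. At an unadjusted p under 0.05 there were 4 members with edgeR (7.27%, against 3.56% of all genes) and 5 with DESeq2 (9.09%, against 2.65%). The 4 were CSPP1, IFT27, IFT88 and TTC40, the last named after its values were seen. IFT27 had 61.3% ± 6.68 in 3 daughters of prefix 10480 and 38.9% ± 12.4 in 5 daughters of prefix 10203 (SD). In prefix 10480, daughters 7 and 9 had 22 and 13 reads and intervals that included 50%, and only daughter 10, with 162 reads, departed from it. The log2 difference was 1.49 ± 0.52 (SE, edgeR adjusted p = 1). IFT88 had 32.5% ± 16.2 in 4 daughters of prefix 10480 and 52.9% ± 8.88 in 5 daughters of prefix 10203. In prefix 10480, daughters 7 and 9 had only 11 and 19 reads of IFT88, and the intervals of daughters 8 and 10 included 50%. Its mean share over both prefixes was 43.9%, and 49.8% at 20 or more reads. CSPP1 rests on daughter 10 alone in prefix 10480 (edgeR adjusted p = 0.624).

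Daughters with a common labelled parent were set beside each other for the side of balance, without a test. A tie, meaning a share of exactly 50%, counted as not on the same side. Members measured in both lay on the same side for 27 of 51 in daughters 4 and 5 (52.9%, against 48.5% of all genes), who share a father. They did so for 16 of 23 in daughters 7 and 8 (69.6%, against 45.4%), who also share a father. Daughter 1 has that father too, with 2 of 5 members on the same side as daughter 7 and 0 of 4 on the same side as daughter 8. The rest include ties, namely CCP110 (11 paternal and 11 maternal reads) and TUBGCP2 (5 and 5) in daughter 1. TTC19 in daughter 8 (39 and 39) is also a tie. The count was 19 of 49 in daughters 6 and 10 (38.8%, against 42.7%), who share a mother. Over all 5 pairs with a common labelled parent it was 64 of 132 (48.5%), and over the 40 pairs without one it was 46.8% of 1185 comparisons. Where both intervals excluded 50%, the side was the same for 1 of 1 gene in daughters 4 and 5, TUBGCP5, and for 0 of 3 in daughters 6 and 10, among them IFT27.

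Other genes of the pathway were taken from lists that the symbol rule does not cover. As edgeR called 0 of all 2981 genes tested, 0 calls in each list follow from that and say nothing about the pathway. For the motors and further subunits of intraflagellar transport, 7 of 14 had a row and 6 of these were tested, with 0 called, a median log2 fold change of -0.06 and a median SD of 9.94 percentage points. WDR60, a dynein intermediate chain and the one with most reads, had 46.9% ± 5.80 (SD, n = 9). For further transition zone and inversin genes, 16 of 20 had a row and 6 were tested, with 0 called, a median of -0.13 and a median SD of 8.41. ATXN10, the gene with most reads there, had 46.6% ± 4.35 (SD, n = 9) over 6588 reads.

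For centriole assembly and the material around centrioles, 27 of 46 were in the table and 16 tested, with 0 called, a median log2 fold change of -0.06 and a median SD of 8.83. DCTN1, a dynactin subunit with most reads there, had 52.7% ± 8.12 (SD, n = 7). For signalling in the cilium, 15 of 23 were in the table and 9 tested, with 0 called, a median of 0.14 and a median SD of 13.3. PKD1, a polycystin, had 53.0% ± 7.96 (SD, n = 7). For small GTPases and their carriers 3 of 16 were tested and for motile cilium assembly 8 of 45, with 0 called in each. HYDIN, a protein of the central pair of motile cilia, had 49.4% ± 8.92 (SD, n = 9). Over all 2981 genes tested the median log2 fold change was -0.01 and the median SD 9.53.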

How the data were processed

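Bulk total RNA of the dorsal raphe nucleus was sequenced in 10 daughters after ribosomal RNA depletion as stranded libraries, per the labels' protocols. The aligner was Novoalign, per the submitters' processing notes, and the build is macFas5, per the file headers. The protocol text also speaks of antibody isolation of histone-DNA complexes, which is not an RNA step. The authors deposited whole-number counts of allelic reads per gene, with a paternal and a maternal column for each daughter and rows of redundant genes summed. The phasing of alleles, the informative positions and any read filters were not given in the sources used here. These steps set how many reads a gene has in a daughter, so totals were not compared between daughters or genes. Columns were matched to samples by title, and all 10 daughters form 1 group.

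A gene counts as measured in a daughter from 10 allelic reads upward. Statements on single daughters use 20 or more reads and 95% Wilson intervals, which hold counting error alone, because reads need not be separate molecules. Parental columns were compared over the whole table with edgeR 4.0.16 under R 4.3.3 (robust glmQLFit and glmQLFTest, daughter as block, 1 library size per daughter, Benjamini-Hochberg threshold 0.05), after keeping genes measured in 5 or more daughters. A daughter without a value for a gene entered with 0 reads in both columns and so added nothing to the ratio. Fold changes are paternal over maternal, and their SE was taken from the fold change and the F statistic. Title prefix was tested as an interaction with the parental column, with prefix 10480 over 10203. DESeq2 1.42.0 was the other tool, and the edgeR step was tested on simulated data. There, 74% of 2-fold and 94% of 4-fold parental differences were recovered, with 7 false calls, and 0 calls where nothing was changed. The simulation took its variation from the trend over genes, so recovery for genes that vary more is not known. The rest used Python 3.11.15 with SciPy 1.17.1, pandas 2.3.3, NumPy 2.4.6 and matplotlib 3.10.9. Alternatives were other normalisations, read minimums, thresholds and interval levels, no replicate block, prefix 10203 alone, and leaving out each daughter.

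The members, role classes and lists were chosen with earlier results of these data known. Genes named are CCP110, CSPP1 and TUBG1, the 3 most widely measured members of each role class, members with 90% or more of 20 or more reads on 1 allele, the 4 with the smallest p in each direction, and the 4 with the largest and the 4 with the smallest SD. Results for some members that this rule picks are not reported here. Others are marked as chosen after their values were seen. AHI1, PCNT, TUBG2, FEV and HTR1A, and the astrocyte and microglia markers on the lists, were not analysed here. A RefSeq gene table of another build, T2T-MFA8v1.1, matched 79 of 84 members by symbol and placed 79 on autosomes and 0 on X. It was used only for that and for which genes neighbour each other.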

Additional observations from a re-analysis of the deposited data

Results flagged for a closer look

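In 33 members picked by the naming rule and measured in 4 to 10 daughters, the highest or lowest daughter was checked for standing apart from the rest of its gene. This was so in 9 of 33. Chance flags about 1 in 20 groups, but the naming rule picks members with an extreme daughter or a large SD, so the count says nothing against that rate. Daughter 7 stood apart for TTC19 (98% paternal), TUBGCP2 (95.7%), NEK1 (75.9%) and IFT88 (9.09%, from 1 paternal and 10 maternal reads). Daughter 2 stood apart for TTC17 (2.53%) and for NEK5 (93.8%, from 15 paternal reads and 1 maternal read). CEP41 in daughter 4 (98.5%) and CSPP1 in daughter 10 (86.1%) stood apart at 65 and 108 reads. TTC3 in daughter 1 (64.3%) had 28 reads and an interval of 45.8 to 79.3, which includes 50%. In daughter 7 the SD of the paternal share over its 35 measured members was 21.1 percentage points, against 14.4 over all genes of that daughter, and between 10.02 and 14.4 over members in the other 9 daughters. Daughter 7 had 273992 allelic reads, fewer than all other daughters except daughter 1, and a median of 30 reads per measured member. The part of its depth in these values was not tested.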

How the results depend on the processing

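The count of 0 members differing between the parental columns was also 0 with TMM factors, DESeq2, no read filter, 20 or more reads, no replicate block, and without each daughter in turn. The count of 0 members differing between title prefixes was also 0 with DESeq2, no read filter and 20 or more reads. Measurements with 90% or more of reads on 1 allele were 9 of 384 at 20 or more reads (2.34%, against 1.6% over all genes). They were 14 of 452 at 10 or more, 4 at 50 or more and 13 at a threshold of 80%. The 5 added at 10 or more reads were CEP250 in daughter 7, with 0 paternal and 17 maternal reads (a count of 0 allows up to 17.6%), CEP89 in daughter 3, with 10 paternal and 0 maternal reads (a count of 0 allows up to 30%), IFT43 in daughter 9, IFT88 in daughter 7 and NEK5 in daughter 2. Without 1 daughter the count lay between 7 and 9. Intervals excluding 50% were 86 at the 95% level and 50 at the 99% level, and between 68 and 86 without 1 daughter. A lower read minimum or threshold can only add measurements, and a wider interval can only exclude 50% less often. Shares over all genes at these other settings are not given here, so the changed counts describe members alone. The median SD over members lay between 9.26 and 10.06 without 1 daughter, and was 9.09 at 20 or more reads, 7.23 at 50 or more and 8.10 in prefix 10203 alone, against 8.20, 6.38 and 7.85 over all genes. The mean shares of the 38 members that the naming rule picks moved by less than their SD under all 112 alternatives run. That limit is loose where the SD is large, and some means crossed 50%. CSPP1 had a mean of 53.9%, and of 45.9% in prefix 10203 alone. NEK5 had a mean of 55.2%, and of 47.4% at 20 or more reads. Depth limits most statements, since only 59 of 452 member measurements had 200 and more reads and daughter 1 gave 5 members.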

Other observations

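CEP76, which keeps centrioles from being copied again, and CEP192 have 4 protein-coding genes between them in the T2T-MFA8v1.1 annotation. They lay on opposite sides of 50% in 5 of the 5 daughters where both were measured. The paternal shares of CEP76 and then CEP192 were 43.8% and 53.8% in daughter 4, 58.6% and 48.3% in daughter 5, and 32.5% and 57.9% in daughter 6. They were 65.2% and 41.2% in daughter 8, and 65.0% and 47.2% in daughter 9. Only daughter 6 had both intervals away from 50% (23.1 to 43.5 and 50.4 to 65.0). The pair was noticed after the values were seen, among 3 member pairs with fewer than 10 protein-coding genes between them. TTC8 and TTC7B lay on the same side in 2 of 4 daughters, and CEP250 and SPAG4 were never both measured.

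Outside the symbol rule, and named after their values were seen, PCM1, the scaffold of centriolar satellites, ranged from 9.09% to 62.1% in 9 daughters (mean 42.9% ± 15.1, SD), the lowest value from fewer than 20 reads. GLI3, a transcription factor of Hedgehog signalling, was measured in 3 daughters, with 118 allelic reads in all, and had its lowest paternal share at 8.70%. It was the 1 gene of the further pathway lists with 90% or more of 20 or more reads on 1 allele. That was 1 of 59 such measurements on the signalling list and 0 of the 129, 43, 67, 24 and 58 on the other pathway lists, against 1.6% over all genes. WDR35, a subunit of the returning transport train, lay at or below 50% in all 9 measured daughters, from 38.0% to 50% (mean 45.1% ± 3.66, SD), and did not pass edgeR's adjusted threshold.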
